A study of Mus musculus with 12 samples.

Results

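The variable region of transfer RNA (tRNA) lies between the anticodon stem and the T arm, and is a short loop in most tRNAs and a long arm in those for leucine (Leu), serine (Ser) and selenocysteine (SeC). Its bases were found from the sequence of each deposited entry. Position 34 was taken from the anticodon, and position 55 from the T of the T loop with its neighbouring G, C and A. The members are all rows from 11 bases after position 34 to 7 bases before position 55, whatever their base. This gave 873 member rows of the 14012 base rows of distinct tRNAs: 508 in short loops, 350 in the long arms of Leu and Ser, and 15 in the arm of SeC. Of 213 distinct tRNAs 163 could be placed in this way, and 162 of them had member rows: 134 with a short loop, 15 Leu, 12 Ser and 1 SeC. The other 50 were not placed, and 5 rows the rule asks for were not listed in the tables.

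In a short loop the member rows are positions 45 to 48, and the 27 loops with 3 member rows have no position 47. In a long arm the bases are counted here from 1 at position 45, and the last one is position 48. A row number is the base's place counted from the 5′ end of the deposited entry, which is why arm base 2 can be row 46 or row 47. Tables list T where the RNA has U.

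The study measured pseudouridine (Ψ) in tRNA of hematopoietic stem and progenitor cells from wild-type mice, and its title names the pseudouridine synthase PUS10. Small RNA was demethylated with wild-type and mutant AlkB enzymes, kept in BEU buffer without or with CMC, and copied into cDNA. There were 4 groups of 3 libraries: young BEU, young CMC, old BEU and old CMC. All 12 were wild type, and the labels give neither an age in months nor whether a number stands for a separate animal, so a p-value covers the spread between deposited libraries, possibly a technical one. tRNA tables hold no marker genes, and the labelled cell type was not checked.

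CMC forms a stable adduct on pseudouridine that stops reverse transcriptase, so a stop that appears with CMC and not in BEU buffer is the signal of the assay. Variable regions carry other modifications: METTL1 with WDR4 methylates G at position 46 of some tRNAs to 7-methylguanosine, DUS3L reduces U at position 47 to dihydrouridine, and NSUN2 methylates C at position 48. The long arm of tRNA-Ser is an identity element for seryl-tRNA synthetase, which also charges tRNA-SeC.

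The long arms on which the results turn are printed 5′ to 3′ from position 44 to position 48, with capitals on each T called as CMC-dependent in both ages. They are shown because arms that differ by a few bases, or not at all, differed in CMC-dependent stops.
Leu-CAA-1-1: tcTcccctggaggc
Leu-CAG-1-1: tctcccctggaggc
Leu-CAG-3-1: tcTcccctggaggc
Leu-CAA-2-1: tcTccgtatggaggc
Leu-CAA-4-1: tcTccgtgTggaggc
Leu-AAG-2-1: tcTcTtcgggggc
Leu-TAG-1-1: tctcttcggaggc
Leu-TAG-3-1: tcaTTtcgatggc
Leu-TAA-2-1: tggacatatgtctgc
Ser-GCT-3-1: tgTgctttgcacgc
Ser-GCT-4-1: tgTgctctgcacgc
Ser-GCT-1-1: tgtgctctgcacgc
Ser-AGA-1-1: tggggtttccccgc
Ser-AGA-2-1: tggggtctccccgc
SeC-TCA-1-1: agctgtttagcgacag

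The short loops on which the results turn are printed from position 41 to position 55, with the member rows in capitals. They include some of the loops with the highest stop rates in BEU buffer and those with a called base.
Val-CAC-1-1: gagaGGTCcccggtt
Pro-TGG-1-1: gagaGGTCccgggtt
Ala-CGC-2-1: gtgaGGTCccgggtt
Tyr-GTA-4-1: cttaGGTCgctggtt
Phe-GAA-1-1: taaaGGTCcctggtt
Arg-TCT-3-1: caaaGGTTgtgggtt
Ala-TGC-4-1: atgaGGCCccgggtt
Gln-CTG-1-1: cagcGACccgagtt
Ile-AAT-1-1: ccaaGGTCgcgggtt
Asn-GTT-3-1: gaaaGGTTggtggtt
Ile-TAT-1-1: ccgaGGTTgtgagtt
Trp-CCA-3-1: agaaGGTTgcgtgtt
Glu-CTC-1-1: ccgcGGCccgggtt
Gly-CCC-4-1: gggtGACccgggtt

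A stop rate is the percent of reads over a base that end there, and a rise is the CMC stop rate minus the BEU stop rate of the same age and replicate number, in percentage points. A base was called CMC-dependent at a mean rise of at least 10 points, a rise in all 3 pairs and an adjusted p under 0.05 in edgeR's quasi-likelihood test on stops and read-through. Of the 873 member rows, 799 had the coverage of at least 20 in every library that the test needed (199 T and 600 A, C or G), and 74 had not. Median coverage of member rows ranged from 143 to 6460 over the 12 libraries and was lower with CMC (143 to 1120) than in BEU buffer (1437 to 6460). Coverage never exceeded 8015, and BEU stop rates were lower in libraries at this ceiling. Of 377 tested rows with BEU libraries on both sides of it, 311 (82.5%) had the lower mean rate in those at it. At the ceiling, taken as 7500 reads or more at the base or 5′ of it, were between 0 and 411 member rows a library. It was reached in no library by 388 of the tested rows, and results are given for these beside those for all.

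CMC-dependent T lay mostly in long arms. In young mice 17 of 75 T in Leu and Ser arms were called (22.7%), 3 of 120 in short loops (2.5%) and 0 of 4 in the SeC arm, where 0 of 4 had an unadjusted p under 0.05. That is 20 of 199 member T, or 10.1%, against 18.8% of all 2189 T tested over the whole tRNAs. In old mice 25 of 75 arm T (33.3%) and 2 of 120 loop T (1.67%) were called, and 0 of 4 in the SeC arm, where 2 had an unadjusted p under 0.05. All 27 member T called in old mice are 13.6% of the 199, against 20.3% of all T tested. Both ages called 17 member T, young mice alone 3 and old mice alone 10. The same split is not given here for all 2189 T, so these counts have no background. A call at a single age is not a difference between the ages, and 0 of 23 member T passed the test for that. limma and DESeq2 called as many member T as edgeR, 20 and 27.

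Below the ceiling 8 of 41 arm T and 1 of 64 loop T were called in young mice, where 17.8% of all T tested were called. In old mice 12 of 41 arm T and 3 of 64 loop T were called, against 19.7% of all T. The third loop T is position 47 of Arg-TCT-3-1, which was not called among all rows (adjusted p = 0.0622). The arm share was thus near or above that of tRNA as a whole, and the loop share below it, with and without the rows at the ceiling.

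The mean rise over the 75 arm T was 7.66, 6.25 and 7.48 points in the 3 young pairs and 9.32, 9.98 and 7.86 in the old. Over the 120 loop T it was 3.40, -0.52 and 5.83 in young and 6.12, 4.29 and 1.51 in old pairs. Arm T were higher in each of the 6 pairs, by 4.65 ± 1.98 points (SD, n = 6; two-sided exact permutation test by sign flips, p = 0.03125, the smallest that 6 pairs allow; 0.0417 after adjustment over 4 such tests). Below the ceiling the difference was 4.94 points. With medians over sites in place of means it was 1.69 points and p was 0.125 in the exact permutation test, and the call was lost.

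**Figure D1:**
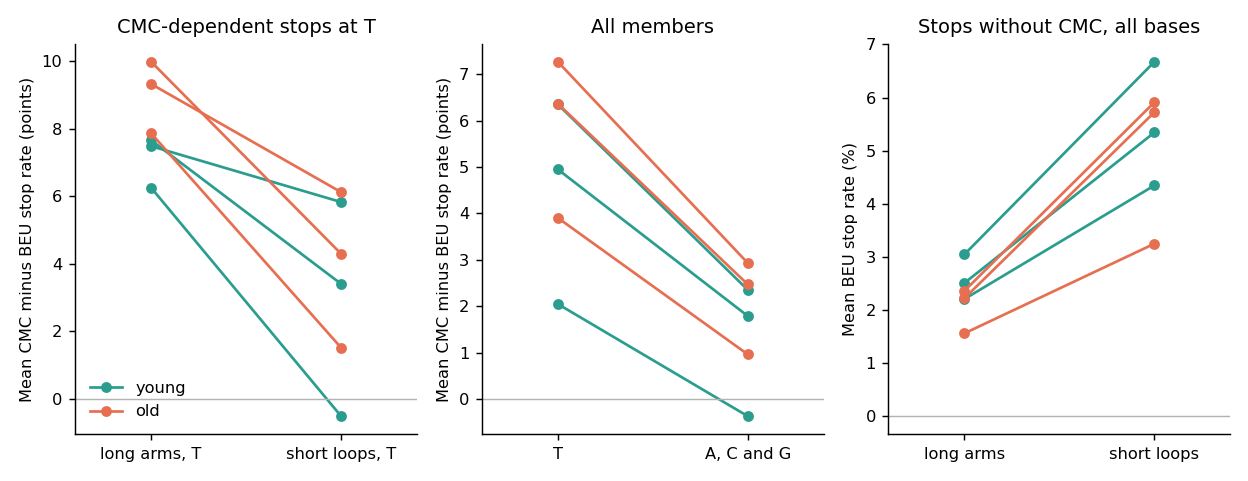
Lines join the means of 2 sets of member sites in each of the 6 pairs (left and middle, CMC minus BEU stop rate in percentage points) or BEU libraries (right, stop rate in percent), young in green and old in orange. Every line runs down from long arms to short loops for T and from T to the other bases, and up from long arms to short loops for stops without CMC.

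CMC-dependent stops were higher at T than at the other bases. Averaged over all member sites, T rose by 4.45 ± 2.19 points and A, C and G by 1.26 ± 1.43 in young mice (SD, n = 3 pairs). In old mice the means were 5.85 ± 1.74 and 2.12 ± 1.03 points. T exceeded the other bases in 6 of 6 pairs, by 3.45 ± 0.734 points (exact permutation test, p = 0.03125, adjusted 0.0417). With medians over sites the difference was 1.70 points, with p = 0.0625 in the same exact test.

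Within the long arms the large rises sat at the start. T at arm base 2 is found in 17 of the 27 Leu and Ser arms, 12 of Leu (anticodons AAG, CAA, CAG and TAG) and 5 of Ser (GCT), while 9 arms have G there and 1 has A. This base was picked out after its values were seen, and no test was made of it. Of these 17 T, 12 were called in young mice and 15 in old. Some of these tRNAs are alike and may share reads, so the 17 are not independent. Young CMC rates, for example, were 21.7%, 21.9% and 16.05% in Leu-AAG-1-1 and 21.9%, 22.1% and 16.4% in Leu-AAG-2-1. The mean BEU stop rate of the 17 T was 0.923% ± 0.114 in young and 0.896% ± 0.148 in old mice (SD of the library means, n = 3). Their mean rise was 19.2 ± 1.04 points and 20.7 ± 1.58 points. The rises of single tRNAs ranged from 5.80 to 47.4 points in young mice.

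The other 58 arm T held 5 calls in young and 10 in old mice, with mean rises of 3.60 ± 1.28 and 5.64 ± 0.947 points. Of these, the 7 T at arm base 4 rose by 15.2 ± 1.196 and 17.0 ± 2.80 points, with 3 and 4 calls. At arm base 5 the 18 T averaged 1.14 ± 0.300 and 2.28 ± 0.713 points, with 0 calls in young mice and 1 in old.

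**Figure D2:**
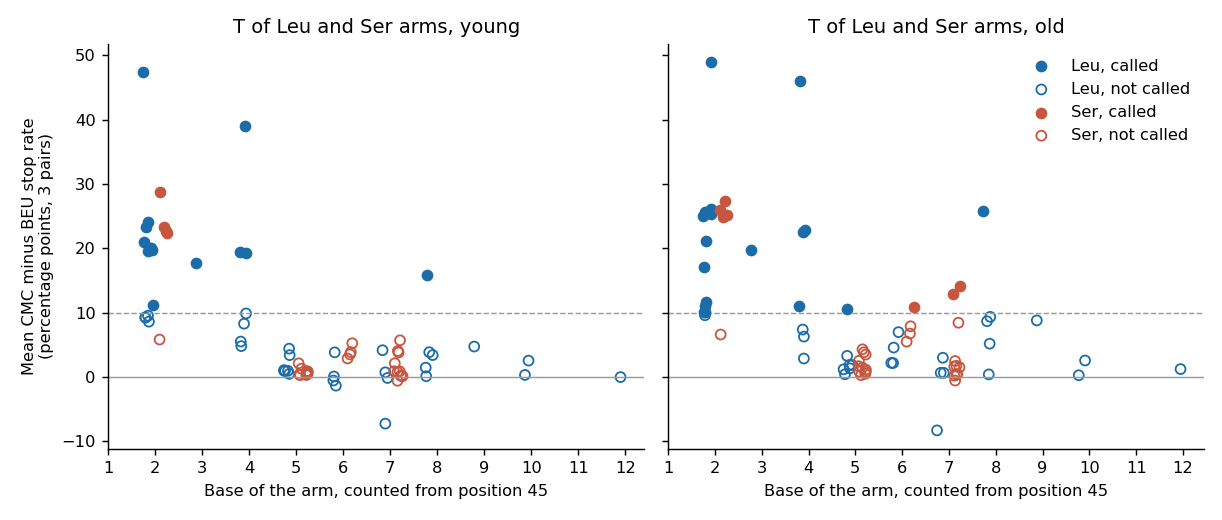
Each point is a T of a Leu (blue) or Ser (red) arm, placed by its base in the arm counted from position 45, against its mean CMC minus BEU stop rate over 3 pairs in percentage points. Filled points were called, and the dashed line marks the 10-point minimum. Called T gather at arm bases 2 to 4 in both ages, with the highest T at arm base 2 (47.4 points in young, 48.9 in old).

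Each arm was also folded alone with RNAfold, as a description of its pairing. Of the 18 tested T on the 5′ strand of a predicted stem, 12 were called in young and 15 in old mice, with median rises of 19.9 and 23.1 points. Of the 54 unpaired T, 5 and 10 were called, with medians of 1.00 and 2.67 points. Of the 3 T on the 3′ strand none was called at either age, and their highest rises were 2.53 and 2.54 points. Arm base and fold state are largely the same division, since arm base 2 lies on the 5′ strand of the stem in most of these arms.

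The highest rise among the members was at arm base 2 of Leu-CAA-1-1 (T at row 47), a leucine tRNA for UUG codons. Its stop rate in BEU buffer was 5.18%, 4.31% and 5.88% in young and 6.17%, 7.41% and 4.51% in old libraries. With CMC it was 43.6%, 54.6% and 59.5% in young and 59.0%, 53.8% and 52.0% in old. CMC and BEU libraries did not overlap, and the 2 ages did. The CMC minus BEU difference was 47.4 ± 7.999 points in young (adjusted p = 5.81e-07) and 48.9 ± 3.47 in old mice (adjusted p = 6.14e-07, edgeR's quasi-likelihood test). No library reached the ceiling at this base. At its neighbours, arm bases 1 and 3, the rises were 3.43 and 2.39 points in young mice.

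The other Leu-CAA tRNAs, which have an arm 1 base longer, rose less at the same base. At row 47 of Leu-CAA-2-1 BEU rates were 0.878% to 1.55% over the 6 libraries and CMC rates 22.6% to 29.2%. It rose by 24.1 ± 2.78 and 26.1 ± 2.35 points in the 2 ages. Leu-CAA-3-1 rose by 23.3 ± 3.73 and 21.2 ± 2.48 points, and Leu-CAA-4-1 by 21.0 ± 5.03 and 17.1 ± 8.42. All 3 were below Leu-CAA-1-1 in both ages.

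The arm of Leu-CAA-1-1 is also that of the Leu-CAG tRNAs, base for base, where the rise was smaller. At row 47 of Leu-CAG-3-1 CMC rates were 9.38%, 13.5% and 12.1% in young and 13.2%, 12.8% and 10.3% in old libraries. The BEU rate was at most 1.03%, and 2 BEU libraries were at the ceiling with 0.025%. The rise was 11.1 ± 2.35 and 11.6 ± 1.75 points, called in both ages. Leu-CAG-2-1, which stands for 3 identical entries, rose by 9.21 ± 2.03 points in young mice, under the 10-point minimum, and 10.1 ± 1.302 in old. CMC rates of the 3 Leu-CAG tRNAs, between 7.72% and 13.5%, did not overlap those of Leu-CAA-1-1. Reads of tRNAs as alike as these may have been split between them by a rule not given in the sources used here.

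Leu-AAG-1-1 and Leu-AAG-2-1 were called at 2 bases of the arm, and Leu-AAG-3-1, with the same arm, at arm base 2 alone. At arm base 2 of Leu-AAG-3-1 (row 47) BEU rates were 0.288% to 0.737% and CMC rates 22.6%, 22.6% and 16.7% in young and 26.5%, 29.3% and 22.6% in old libraries. The rise was 20.1 ± 3.20 and 25.7 ± 3.35 points. At arm base 4 of Leu-AAG-2-1 (row 49) it was 19.4 ± 1.33 and 22.8 ± 2.33 points. Between them lies a C, which was not called. BEU libraries below the ceiling gave rates under 1% at these bases, as did those at it.

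Leu-TAG-3-1, whose arm folded alone into no pair, had the second highest T. At arm base 4 (row 49) BEU rates were 1.197%, 1.499% and 1.39% in young and 1.01%, 1.15% and 1.501% in old libraries. With CMC they were 41.0%, 41.6% and 38.7% in young and 46.3%, 53.6% and 41.6% in old. This base rose by 39.1 ± 1.57 points in young (adjusted p = 4.60e-08 in edgeR) and 45.95 ± 6.22 in old mice (adjusted p = 3.28e-08), with no library at the ceiling. The T before it (row 48) rose by 17.6 ± 4.14 and 19.7 ± 6.09 points. The A at arm base 2 (row 47) rose too, by 16.9 ± 5.62 and 10.6 ± 2.01 points, and its call in old mice was lost with 1 subtracted from stops and coverage (9.05 points) and without old replicate 1 (9.78). In Leu-TAG-1-1 arm base 4 (row 49) rose by 9.86 ± 2.43 and 11.03 ± 2.26 points, called in old mice alone.

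In Leu-TAA arms, which have G at arm base 2, rises were small on average. Over 9 T the mean was 1.67 ± 2.56 points in young and 4.06 ± 2.27 in old mice, with 0 calls and 1. The highest single rises, 8.27 points in young and 10.6 in old mice, were in Leu-TAA-1-1. In Leu-TAA-2-1, the best covered of these tRNAs, the highest mean rise over all 6 pairs, 0.91 points, was at arm base 8 (row 52). It was 1.43 ± 3.12 points in young and 0.38 ± 1.76 in old mice, less than the spread between pairs.

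Among serine tRNAs the called T at arm base 2 were those with the anticodon GCT. At arm base 2 of Ser-GCT-3-1 (row 46) BEU rates were 2.07%, 1.63% and 1.43% in young and 0.771%, 0.775% and 0.932% in old libraries. CMC rates were 30.5%, 30.5% and 30.4% in young and 32.5%, 24.2% and 28.1% in old. The rise was 28.7 ± 0.283 points (adjusted p = 7.26e-08) and 27.4 ± 4.14 (adjusted p = 3.39e-08), and no library was at the ceiling. Ser-GCT-4-1, best covered of the group, rose by 22.7 ± 2.35 and 24.9 ± 1.66 points, with 3 BEU libraries at the ceiling.

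Ser-GCT-1-1 has the same arm as Ser-GCT-4-1 and rose by 5.80 ± 1.61 and 6.59 ± 1.47 points, which was not called. Its CMC rates were 4.70% to 8.33% over both ages, and those of Ser-GCT-4-1 were 22.01% to 27.3%. The 6 CMC libraries of the 2 tRNAs did not overlap. This pair, like the Leu-CAA and Leu-CAG pair, was set side by side after the values were seen, and nothing was tested.

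The remaining serine arms have G at arm base 2. The 5 T of Ser-CGA arms rose by 1.07 ± 1.71 and 2.08 ± 1.54 points on average, with no call at either age. Ser-AGA and Ser-TGA arms had 1 call each, in old mice, at the T of arm base 7 (row 51), in the loop of the arm. In Ser-AGA-1-1 the BEU rates there were 15.3%, 17.4% and 14.3% in young and 12.03%, 14.2% and 14.3% in old libraries. CMC rates were 18.8%, 19.2% and 21.2% in young and 27.8%, 28.6% and 26.5% in old, without overlap between the ages. Its rise reached 4.02 ± 2.61 points in young (adjusted p = 0.16) and 14.1 ± 1.81 in old (adjusted p = 0.000362). Ser-TGA-2-1, which has the same arm, rose by 3.79 ± 1.38 and 12.9 ± 1.61 points. Ser-CGA-2-1, named after the values were seen, has that arm too. The highest rise of any tested T of the Ser-CGA arms in old mice was 5.475 points. The T of Ser-AGA-1-1 and Ser-TGA-2-1 were outside the adjusted comparison of ages, since their rise over all 6 pairs was under 10 points. Their unadjusted interaction p in edgeR's test was 0.0109 in Ser-AGA-1-1 and 0.00942 in Ser-TGA-2-1. In Ser-AGA-2-1 the T at arm base 7 rose by 0.86 ± 2.21 and 2.46 ± 1.78 points.

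**Figure D3:**
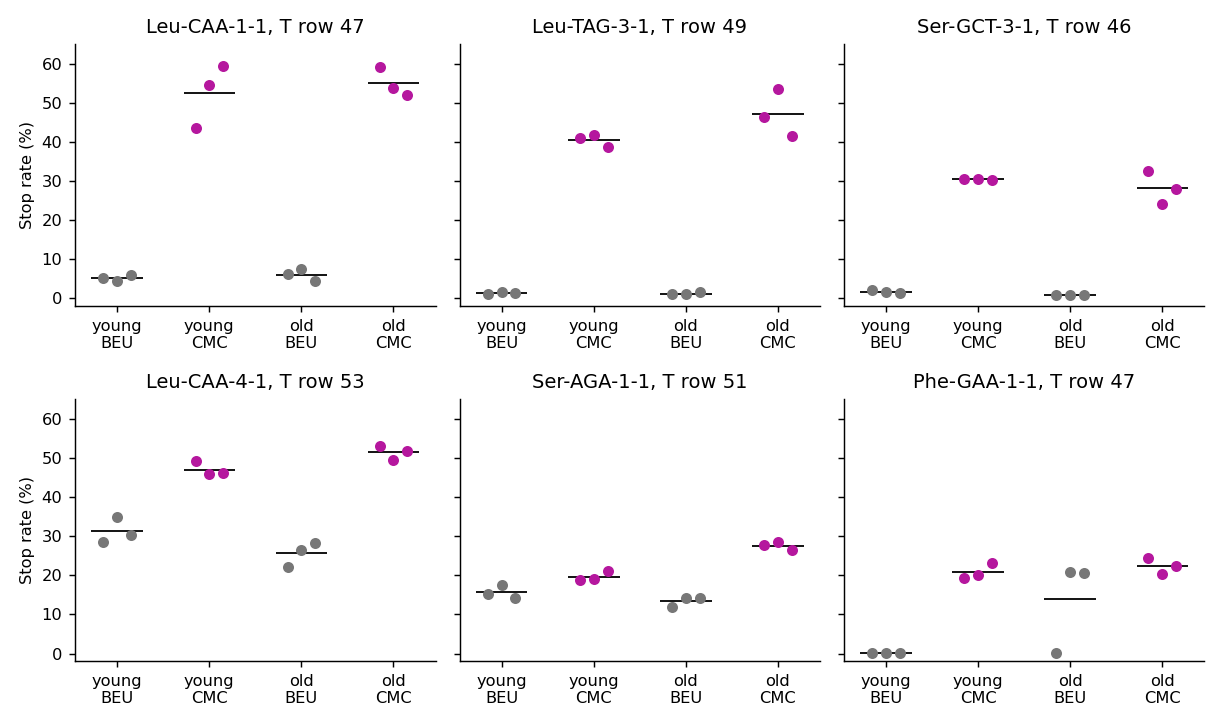
Stop rates in percent of the 12 libraries at 6 T, with grey points for BEU, purple points for CMC and a line at the mean of 3. The groups separate in the first 4 panels, the old CMC points lie above the young ones in Ser-AGA-1-1, and in Phe-GAA-1-1 the 4 BEU libraries near 0 are those at the ceiling.

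A late T in the arm of Leu-CAA-4-1, arm base 8 (row 53), combined a high BEU rate with a rise. BEU rates were 28.4%, 34.9% and 30.4% in young and 22.2%, 26.4% and 28.2% in old libraries, and CMC rates 45.8% to 53.1% over both ages. The rise was 15.8 ± 4.90 points (adjusted p = 0.00475) and 25.8 ± 4.44 (adjusted p = 0.00011), and without young replicate 1 the call in young mice was lost (13.3 points). The G before it (row 52) rose by 21.1 ± 2.35 and 26.8 ± 3.45 points, and its young call was lost without young replicate 1 or 3 (20.0 and 20.9 points). Leu-CAA-1-1 showed the opposite at arm base 7 (row 52): its BEU rate of 22.6% in young and 22.1% in old mice was lower with CMC (rises of -7.28 ± 4.56 and -8.33 ± 2.15 points, adjusted p = 0.0309 and 0.0112 in edgeR).

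The SeC arm, the longest with 15 member rows, had rises between -1.06 and 2.04 points at its 4 T in young mice. In old mice its T rose by 1.78 ± 1.28 points on average. All 15 rows were at the ceiling in at least 1 library, so the SeC arm has no result below it.

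Short loops have most of their T at position 47 (88 tested) and the rest at position 48 (32 tested). Position 47 rose by 3.15 ± 3.64 points in young and 4.08 ± 2.93 in old mice, and position 48 by 2.22 ± 2.06 and 3.68 ± 0.867. The difference of 0.669 ± 1.92 points was positive in 3 of 6 pairs (exact permutation test, p = 0.4375), and below the ceiling it was -0.30 points.

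Of the 3 loop T called in young mice, at position 47 of Phe-GAA-1-1, Asn-GTT-3-1 and Tyr-GTA-4-1, only the last was free of the ceiling. Phe-GAA-1-1 stands for 5 identical entries. Its CMC rates were 19.4%, 20.0% and 23.1% in young and 24.3%, 20.2% and 22.4% in old libraries. BEU rates were 0.0254% to 0.0375% in young and 0.025%, 20.9% and 20.6% in old. The 4 low ones came from libraries at the ceiling, and the 2 high ones, from libraries below it, lay within the CMC range. The rise was called in young mice, at 20.8 ± 1.99 points, and was 24.3, -0.67 and 1.80 points in the old pairs, of which the last 2 had no library at the ceiling.

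Asn-GTT-3-1, which stands for 9 identical entries, rose by 14.2 ± 4.37 and 9.39 ± 7.88 points, with all 6 BEU libraries and 1 CMC library at the ceiling. At Tyr-GTA-4-1 no library was there: BEU rates were 1.28% to 2.58% over both ages and CMC rates 10.9%, 9.88% and 23.3% in young and 9.80%, 6.45% and 12.5% in old libraries. The groups did not overlap, and the rise was 12.3 ± 7.71 points (adjusted p = 0.000251) and 7.93 ± 3.12 (adjusted p = 0.000297), under the minimum in old mice. Without young replicate 3 the young rise was 7.84 points and the call was lost. The lowest coverage behind these rates was 30.

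The 2 loop T called in old mice are neighbours in Ile-TAT-1-1. At position 47 (row 48) the 2 ages rose by 6.12 ± 4.85 and 13.3 ± 8.78 points, and without old replicate 2 the old rise was 8.41 and its call was lost. At position 48 (row 49) BEU rates were 13.3%, 15.7% and 11.7% in young and 7.68%, 6.77% and 11.7% in old libraries, and CMC rates 19.7%, 19.9% and 15.2% and 19.6%, 21.4% and 23.9%. The rise was 4.70 ± 1.53 points (adjusted p = 0.176) and 12.9 ± 1.49 (adjusted p = 0.00124). Both the BEU and the CMC rates of the ages overlapped here.

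At A, C and G, 4 of 600 member bases were called in young mice, or 0.667%, against 0.368% of all 7870 tested, and 8 of 600 in old mice, or 1.33%, against 0.61%. Below the ceiling it was 4 of 283 in each age, or 1.41%, against 0.661% of all A, C and G in young and 1.1% in old mice. These counts moved with single pairs of libraries: 11 in young mice without replicate 2 and 1 without replicate 1 or 3, and in old mice 3 without replicate 1 and 2 without replicate 2. The highest called rise among A, C and G of short loops was at G at position 46 of Ile-AAT-1-1, by 24.9 ± 4.75 and 22.4 ± 3.27 points, where all 6 BEU libraries and 1 CMC library were at the ceiling. At G at position 46 of Tyr-GTA-4-1, next to its called T, the rise was 12.2 ± 7.02 and 8.28 ± 3.59 points. In old mice alone the list adds G at position 46 of Arg-TCT-3-1, C at position 47 of Ala-TGC-4-1, C at position 48 of Gln-CTG-1-1, and the A of row 54 and the C of row 57 of Leu-TAG-1-1, with rises of 10.3 to 14.99 points. Old CMC rates were 23.9%, 42.9% and 25.0% in Arg-TCT-3-1 (14.99 ± 11.4 points) and 4.44%, 28.6% and 9.76% in Gln-CTG-1-1 (11.9 ± 12.35 points). The lowest coverage at these bases was 22 and 21.

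Stops without CMC had a different pattern, with short loops above long arms. The mean BEU stop rate over 448 loop sites was 5.34%, 6.67% and 4.35% in young and 3.25%, 5.72% and 5.91% in old libraries. Over 336 arm sites it was 2.51%, 3.05% and 2.21% in young and 1.56%, 2.22% and 2.36% in old. Arms were lower in each of the 6 BEU libraries, on average by 2.89 ± 0.821 points (long arm minus short loop -2.89; exact permutation test, p = 0.03125, adjusted 0.0417). Below the ceiling the difference was -4.09 points.

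In the loops the highest mean was at position 46 where it was G. Over 75 tRNAs with G at position 46 the mean BEU stop rate was 13.9% ± 2.76 in young and 12.3% ± 3.92 in old mice, and over 42 with A there 3.47% ± 0.457 and 3.43% ± 0.738. Below the ceiling these were 22.7% ± 2.05 and 19.2% ± 3.34 over 34 tRNAs with G, and 5.055% ± 0.466 and 5.198% ± 0.907 over 24 with A. The next highest base was T at position 47, with 5.70% ± 1.74 and 5.67% ± 2.29 over 88 tRNAs, and 7.69% and 7.01% over the 44 below the ceiling. G at position 45 had 3.19% ± 0.568 and 2.64% ± 0.4605, C at position 48 had 2.72% ± 0.485 and 2.615% ± 0.672, and T at position 48 had 3.85% ± 1.01 and 3.24% ± 0.757. Single tRNAs with G at position 46 ran from 0.07% to 65.5% in young mice.

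**Figure D4:**
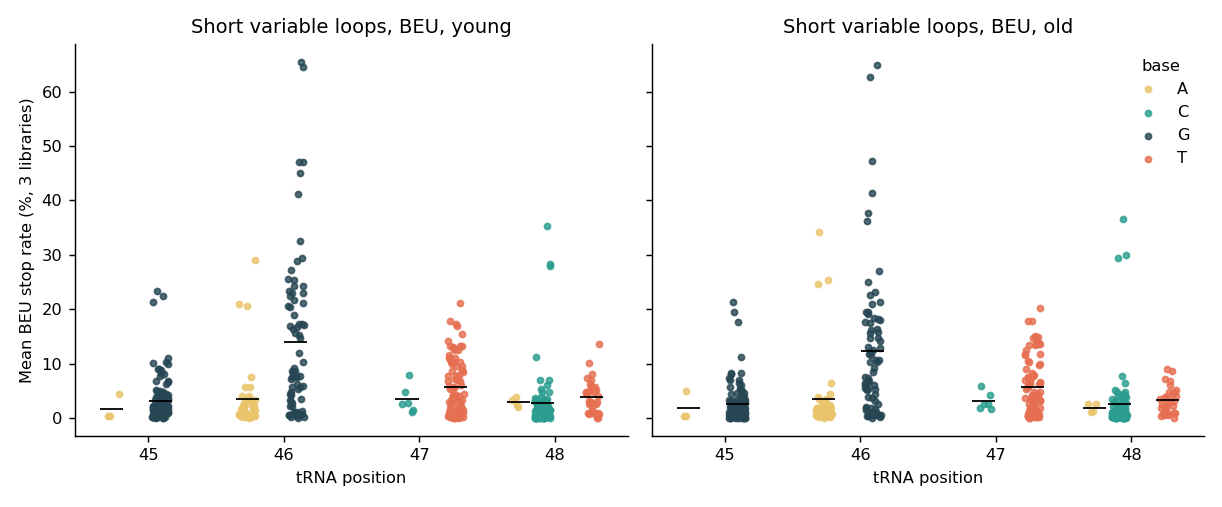
Each point is a base of a short loop, by tRNA position and coloured by base, against its mean stop rate in BEU buffer over 3 libraries in percent, with a line at the mean of each base. G at position 46 reaches 65.5% in young mice and has the highest mean in both ages.

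The level at G of position 46 was spread widely over amino acids, and many of these means mix rows at and below the ceiling. The 10 Val tRNAs averaged 31.9% ± 3.67 in young and 29.4% ± 5.44 in old mice, and the 5 of them below the ceiling 52.7% ± 2.25 and 50.8% ± 5.04. The 2 Arg tRNAs, both below it, averaged 24.4% ± 3.39 and 17.3% ± 3.54. The 6 Trp tRNAs, also below it, averaged 20.9%, 23.7% and 21.4% in the young libraries and 16.6% ± 2.16 over the old.

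Over all rows Phe, Tyr, Pro, Ala and Met came next, with young means between 15.35% and 17.0%. Below the ceiling their order was wider, from 47.1% ± 14.6 in 1 Pro tRNA and 29.5% ± 3.32 in 1 Phe tRNA to 16.9% ± 1.61 in 8 Ala, 16.9% ± 1.94 in 4 Tyr and 11.8% ± 2.82 in 2 Met tRNAs. The initiator Met, Lys, Ile and Thr tRNAs averaged between 7.64% and 11.75% in young mice over all rows. At the low end were 12 Cys tRNAs with 3.62% ± 1.01 and 2.795% ± 0.998, 3 Asn tRNAs with 2.90% ± 2.96 and 4.305% ± 2.796, and 2 Gly tRNAs with 1.197% ± 0.180 and 1.06% ± 0.169. Over all rows the 5 Glu tRNAs were lowest, with 0.90% ± 0.02 and 1.02% ± 0.17. Below the ceiling this order did not hold. There the 2 Cys tRNAs averaged 0.80% and 0.57%, and 1 Lys tRNA 0.31% and 0.21%, both under 1 Glu tRNA with 0.96% and 1.185%. The 1 Ile tRNA below the ceiling had 21.7% and 15.8%.

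The highest rate, of Val-CAC-1-1, was 66.4%, 64.5% and 65.4% in young and 60.2%, 67.4% and 67.0% in old BEU libraries. With CMC it was 55.9% to 58.7% in young and 53.7% to 70.1% in old, and neither age was called (adjusted p = 0.369 and 0.537). Val-AAC-2-1, with the same loop from position 41 to 55, had 64.6% and 62.7% and may share reads with it. Pro-TGG-1-1 had 54.2%, 56.9% and 30.3% in young and 4.89%, 52.1% and 51.5% in old libraries. The mean of 36.2% in old mice thus hides a library far below the other old ones, and a young library was also lower. Coverage of this base reached the ceiling in no library. The rates of 30.3% and 4.89% came from the libraries with the most tRNAs at the ceiling (98 and 103), and the cause was not tested.

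Where position 46 was A the exception was Gly, with 14.6% ± 1.69 and 17.3% ± 2.67 over 5 tRNAs. In Gly-CCC-4-1 stops ran on to C at position 48, with 37.1%, 35.2% and 33.7% in young and 36.2%, 36.3% and 37.3% in old libraries, and 28.4% and 28.0% in young mice at the same C of Gly-CCC-2-1 and Gly-CCC-3-1, the latter 2 named after their values were seen. CMC left Gly-CCC-4-1 within 0.5 points (-0.47 ± 1.96 in young, 0.01 ± 1.34 in old mice).

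CMC-dependent stops at member T were compared between the ages, and no T passed. Of 23 member T tested (a mean rise of at least 10 points over the 6 pairs, 19 in arms and 4 in loops) 0 passed in edgeR's interaction test, 3 had an unadjusted p under 0.05, and limma and DESeq2 called 0. Over all tRNA 0 of 439 T passed, or 0.0%. The 3 were Phe-GAA-1-1 and Asn-GTT-3-1 at position 47, both with BEU libraries at the ceiling, and Ser-GCT-3-1 at arm base 2, whose mean rise was 1.33 points lower in old mice (-1.33, SE 2.40). The test is made on log odds, and on that scale the change with CMC at Ser-GCT-3-1 was larger in old mice. Its mean BEU rate was 1.71% in young and 0.826% in old mice, and its mean CMC rate 30.5% and 28.2%. The largest differences upward were 9.98 points at arm base 8 of Leu-CAA-4-1 (SE 3.82) and 6.86 at arm base 4 of Leu-TAG-3-1 (SE 3.702), with adjusted p = 0.999 each in edgeR's test. Below the ceiling 0 of 10 passed and 2 had an unadjusted p under 0.05, where 1.4% of 215 T passed over all tRNA. Without old replicate 1, Phe-GAA-1-1 and Asn-GTT-3-1 passed. At Phe-GAA-1-1 all young BEU libraries and none of the remaining old ones were then at the ceiling, so age and ceiling cannot be told apart. At Asn-GTT-3-1 all remaining BEU libraries were at it.

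BEU stop rates were compared between ages at the 170 member bases with a mean BEU rate of at least 5%. In edgeR 0 passed, against 0.0% of all 1190 bases. Of the member bases 14 had an unadjusted p under 0.05 in edgeR, and DESeq2 called 7 and limma 0. The same counts over all 1190 bases are not given here, so these have no background. Below the ceiling edgeR called 12 of 122 member bases, or 9.84%, against 5.6% of 893 over all tRNA. All 12 were lower in old mice, as were 36 of the 38 called bases outside the variable region.

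Of the 12, 7 lay in short loops and 5 in Leu arms. They were found in the rows below the ceiling after the fit on all rows had called none. Of the loop bases 5 were G at position 46, in Ala-CGC-2-1, Arg-TCT-3-1, Met-CAT-2-1, Trp-CCA-3-1 and Trp-CCA-4-1. The others were G at position 45 of Ala-AGC-6-1 and T at position 48 of Ile-TAT-1-1. The Trp tRNAs had similar rates in each library and may share reads. In Ala-CGC-2-1 BEU rates were 26.6%, 26.2% and 23.5% in young and 17.0%, 18.5% and 17.3% in old libraries (adjusted p = 0.00899). In Met-CAT-2-1 they were 16.9%, 20.7% and 14.3% in young and 8.08%, 11.04% and 11.9% in old (adjusted p = 0.00399). The ages did not overlap at either. In arms the lowest adjusted p, 0.000967 in edgeR's test, was at arm base 6 of Leu-TAA-2-1 (T at row 50), with 9.66%, 13.4% and 8.71% in young and 4.45%, 5.37% and 5.66% in old libraries. At arm base 5 of Leu-CAA-1-1 (C at row 50) rates were 7.65% to 8.99% in young and 4.20% to 4.79% in old. DESeq2, on all rows, called 5 of these 12. Its other 2 calls were upward, at position 47 of Phe-GAA-1-1 and position 46 of Ile-AAT-3-1, with 4 and 6 libraries at the ceiling.

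**Figure D5:**
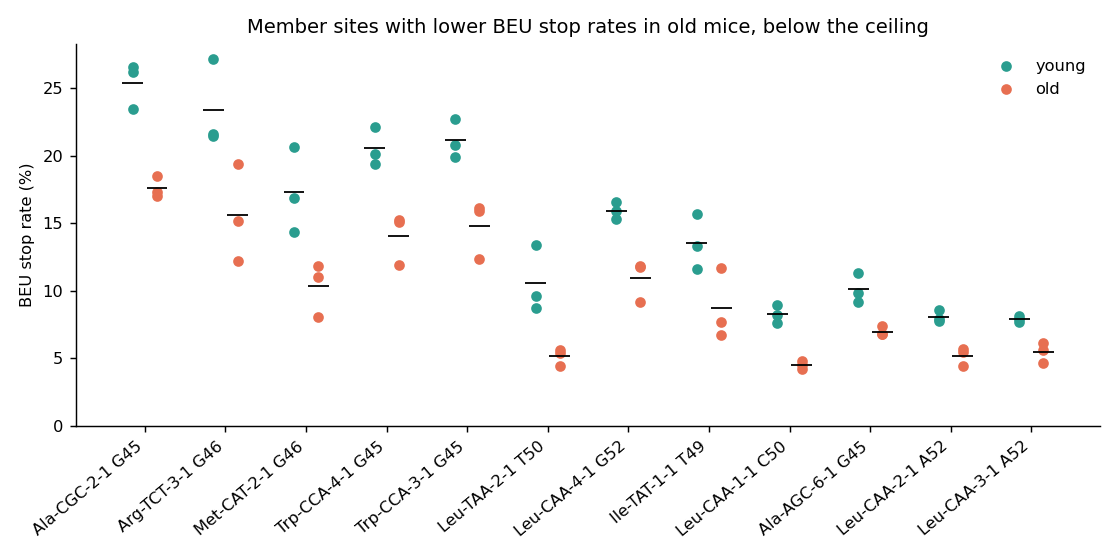
BEU stop rates in percent at the 12 member bases that edgeR called lower in old mice among rows below the ceiling, with green points for young libraries, orange points for old and a line at each mean. Labels give the tRNA, the base and its row in the entry, and the old mean is below the young one at all 12.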

How the data were processed

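Of the 6 tables that the authors deposited, each pairs a BEU with a CMC library. Per the file headers, each row holds coverage and stop reads, both counts, and a stop rate in percent, which equalled 100 times stops over coverage in every row. Bowtie2 2.3.5, Bowtie and mm10 are listed, without roles, per the submitters' processing notes. How a read end became a stop was not given in the sources used here. Reads carry no molecular identifiers, so they are not independent molecules.

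Identical entries were counted once. Member rows, sequence features and lists were chosen with earlier results of these data known. A coverage minimum of 20 held for each of the 12 libraries. edgeR 4.0.16 (R 4.3.3) was fitted over all 10059 such sites on pairs of stops and read-through, with library terms, 4 group terms on the log-odds scale and no dispersion trend. Benjamini-Hochberg adjustment was made over all T, and over all A, C and G, of every tRNA. Age was the interaction of group coefficients. Means over sites were compared by two-sided exact sign flips over 6 pairs. limma 3.58.1 on log odds and DESeq2 1.42.0 were alternatives, and the fits were tested on simulated data. Arms were folded with RNAfold (ViennaRNA 2.7.2).

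Sites named are, by rule, the called T with the highest rises, the best covered T and G of each loop position and arm of each Leu and Ser anticodon, the extreme age differences, the highest BEU rates and the called A, C and G. Any others are said to be chosen after their values were seen. Same-numbered BEU and CMC libraries did not deviate together (correlations between -0.141 and 0.044), so numbers were not used as a block.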

Additional observations from a re-analysis of the deposited data

How the results depend on the processing

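Counts of called member T (20 in young mice, 27 in old) were 38 in young mice with all entries counted, 9 and 15 below the coverage ceiling, and 37 and 59 at a minimum rise of 5 points. Leaving out a pair gave 20 to 27 and 25 to 35. Counts at A, C and G (4 and 8) were 1 and 4 at a coverage minimum of 50, 20 in old mice at a minimum of 1, 11 and 15 with all entries counted, 4 in old mice with 1 subtracted, 4 in old mice below the ceiling, 12 and 26 at a minimum rise of 5 points, and 1 to 11 and 2 to 7 with a pair left out. A replicate block left the T counts at 20 and 27 and gave 2 and 5 at A, C and G. Same-numbered libraries did not deviate together, but with 3 libraries a group this does not settle whether the numbers pair them. Rises and sign flips used the pairs by number. Age differences at T (0) were 0 to 2 with a pair left out. Age differences in BEU rates (0) were 12 below the ceiling, 7 by DESeq2 and 0 to 1 with a pair left out. With medians over sites, long arms exceeded short loops by 1.69 points at T (exact p = 0.125) and T exceeded A, C and G by 1.70 (exact p = 0.0625). T at position 47 minus other loop T (0.669) was -0.18 at a coverage minimum of 10, -0.24 at a minimum of 1 and -0.30 below the ceiling. Leaving out a pair, the 4 differences kept their sign, but 5 pairs cannot give an exact p below 0.0625. Of 35 named rises, 5 lost their call with 1 subtracted, 5 with the block and 1 to 7 with a pair left out, and none reversed. The cause of these changes was not tested.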
